A study of Mus musculus with 8 samples.

Results

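The Cyp3a genes encode the cytochrome P450 enzymes of subfamily 3A, and 8 of them were followed here: Cyp3a11, Cyp3a13, Cyp3a16, Cyp3a25, Cyp3a41a, Cyp3a41b, Cyp3a44 and Cyp3a59. They were chosen by gene name and are 8 of the 27277 rows of the count table. The gene Cyp3a57 and the pseudogene Cyp3a63-ps also carry a Cyp3a name in the table and are given only for comparison. The libraries came from primary mouse hepatocytes kept in culture for 24 h and exposed to glucagon at 100 nM during 12 h. Control cells were Lcmr1f/f, that is, with a floxed Lcmr1 gene and no Cre named in the labels. The ko cells were Lcmr1f/f with albumin-cre, a Cre transgene driven by the albumin promoter, which is active in hepatocytes. Med19 is the current symbol of Lcmr1, and its protein belongs to Mediator, the coactivator of RNA polymerase II. Both genotypes received glucagon, so no library shows the cells without the hormone, and the labels give neither the age or sex of the mice nor the number of animals. Each genotype has 3 RNA libraries and 1 library of chromatin immunoprecipitation (ChIP). The labels do not tie the replicates to separate animals or cultures, and p-values therefore describe how much these libraries differ, which may be technical.

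Cyp3a enzymes sit in the membrane of the endoplasmic reticulum, where they oxidise drugs, steroid hormones and bile acids with electrons passed on by cytochrome P450 reductase and cytochrome b5. In liver their genes are switched on by the xenobiotic receptors PXR (Nr1i2) and CAR (Nr1i3), which bind DNA as dimers with the retinoid X receptor, on a background set by hepatocyte factors such as HNF4A. Cyp3a11 is the main form of adult mouse liver, Cyp3a41 and Cyp3a44 are known as forms of the adult female liver, and Cyp3a16 as a form of fetal and young liver.

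The knockout libraries held less Cyp3a11 and Cyp3a25 RNA than the controls, whereas Cyp3a41a and Cyp3a41b, which had no count in any control library, were detected in every knockout library. Of the 8 genes, 6 had enough counts to be tested, 2 rose, 2 fell and 2 did not pass, by edgeR's quasi-likelihood test with an adjusted p of 0.05 as the threshold. Over all 15135 genes tested, 25.5% were called, 12.6% as higher and 13.0% as lower in the knockout, so a called gene is common in this comparison. Cyp3a41a and Cyp3a41b passed the filter on low counts only through the knockout libraries, so that they could be tested at all rested on their being higher there.

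Total counts per RNA library lay between 22191786 and 26595249. Control replicate 1 stood apart from control replicates 2 and 3, since chi-square over degrees of freedom was 149.7 and 143.2 against them. The same measure was 7.41 between control replicates 2 and 3 and 27.3 to 54.7 between knockout pairs. Med19, the targeted gene, had control counts of 154, 226 and 248 against knockout counts of 90, 166 and 97, a log2 fold change of -1.50 (SE 0.31, edgeR adjusted p = 0.012). The level of Med19 thus went with the genotype labels, and knockout replicate 2 had the most counts of it among the knockouts. Levels below are CPM (counts scaled to a common library total), with library sizes adjusted by the trimmed mean of M values (TMM). Over all genes tested the log2 fold change had a median of 0.0141 with TMM and of 0.602 with library size alone, which moved the calls from 1905 higher and 1960 lower to 7711 higher and 617 lower. Markers of hepatocytes and of other cells moved with genotype too: all 11 hepatocyte markers fell, with a summed level of 123800 to 136900 CPM per control and 33670 to 44060 CPM per knockout library, and 10 of 14 markers of macrophages and Kupffer cells rose, with 440.0 to 523.6 CPM per control and 848.7 to 1003 CPM per knockout library. Calls over all genes tested were 13.0% lower and 12.6% higher with TMM. With library size alone 7 of the 11 hepatocyte markers fell and 13 of the 14 macrophage markers rose. In bulk RNA, fewer hepatocytes and less of an mRNA per hepatocyte cannot be told apart, and this applies to every fall described here.

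Of the 8 genes, 7 lie in a cluster on chromosome 5, and Cyp3a13 lies apart on the same chromosome. In the order of the mm10 assembly the cluster runs Cyp3a16, Cyp3a41b, Cyp3a41a, Cyp3a44, Cyp3a11, Cyp3a25, all on the minus strand, and then Cyp3a59 on the plus strand. Cyp3a41a and Cyp3a41b are near-identical copies: of the 300 bases of each promoter (250 before and 50 after the RefSeq start, GRCm38.p6), 295 were identical in an alignment. Cyp3a25 and Cyp3a59, which lie next to each other on opposite strands, shared 288 of 300. Cyp3a44 shared 281 bases with Cyp3a41a and 284 with Cyp3a16. Cyp3a11 shared 229 with Cyp3a41a, and Cyp3a13 shared no more than 194 with any of the others. All 8 promoters were found in the RefSeq table.

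The promoters of Cyp3a41a, Cyp3a44 and Cyp3a11 are shown because neighbours with related sequence behaved differently: Cyp3a41a appeared in the knockout, Cyp3a44 stayed near the detection limit in both groups, and Cyp3a11 fell. Capitals mark the motif CAAAGTCCA, a form of the HNF4 recognition sequence, the 9 aligned bases of Cyp3a44 that differ from it, and the nuclear receptor half-sites AGTTCA and AGGTCA on either strand (on the opposite strand they read TGAACT and TGACCT). Each is written 5′ to 3′ on the strand of its gene.
Cyp3a41a, chr5:145720087-145720386, minus strand: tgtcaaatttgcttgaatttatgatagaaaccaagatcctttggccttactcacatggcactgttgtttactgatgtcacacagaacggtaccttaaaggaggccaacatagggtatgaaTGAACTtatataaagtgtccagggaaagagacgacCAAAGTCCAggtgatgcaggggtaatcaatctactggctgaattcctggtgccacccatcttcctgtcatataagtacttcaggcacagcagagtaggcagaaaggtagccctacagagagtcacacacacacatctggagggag
Cyp3a44, chr5:145805825-145806124, minus strand: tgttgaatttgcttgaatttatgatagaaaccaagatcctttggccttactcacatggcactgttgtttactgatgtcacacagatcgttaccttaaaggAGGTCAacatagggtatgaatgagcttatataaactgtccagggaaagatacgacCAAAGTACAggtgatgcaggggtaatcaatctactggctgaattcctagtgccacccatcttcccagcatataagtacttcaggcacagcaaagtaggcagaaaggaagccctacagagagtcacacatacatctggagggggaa
Cyp3a11, chr5:145879805-145880104, minus strand: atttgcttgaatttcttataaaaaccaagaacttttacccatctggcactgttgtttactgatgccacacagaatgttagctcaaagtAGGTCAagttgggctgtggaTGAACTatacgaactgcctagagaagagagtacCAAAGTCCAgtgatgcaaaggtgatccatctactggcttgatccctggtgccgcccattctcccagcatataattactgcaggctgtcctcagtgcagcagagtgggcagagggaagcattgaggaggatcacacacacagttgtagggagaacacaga
The HNF4 motif starts 109 bases before the RefSeq start of Cyp3a11 and 95 bases before that of Cyp3a41a, and it was also found in Cyp3a41b and Cyp3a16. The RefSeq start of Cyp3a11 lies 110 bases inside the deposited gene, so by the deposited coordinates that motif falls within the gene; for the others shown the 2 starts differ by at most 1 base. Both strands were searched, and 0.475% of the 32851 promoter windows of the same length in the RefSeq table hold it. At the aligned place Cyp3a44 differs from Cyp3a41a by C162A, with positions counted from 1 at the 5′ end of the window. A second substitution, A124G, falls in the AGTTCA match of Cyp3a41a, and C104T makes an AGGTCA match in Cyp3a44 that Cyp3a41a lacks. Half-sites of 6 bases are common, with AGTTCA in 14% and AGGTCA in 16.3% of all windows. The STAT motif TTCNNNGAA, present in 8.3% of windows, was found in 0 of the 8. A match describes letters in this window only.

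Cyp3a25 and Cyp3a59 are shown as the pair with similar promoters and unlike changes, since Cyp3a25 fell and Cyp3a59 did not pass the test. Capitals mark AGGTCA and, on the opposite strand, TGACCT.
Cyp3a25, chr5:146009569-146009868, minus strand: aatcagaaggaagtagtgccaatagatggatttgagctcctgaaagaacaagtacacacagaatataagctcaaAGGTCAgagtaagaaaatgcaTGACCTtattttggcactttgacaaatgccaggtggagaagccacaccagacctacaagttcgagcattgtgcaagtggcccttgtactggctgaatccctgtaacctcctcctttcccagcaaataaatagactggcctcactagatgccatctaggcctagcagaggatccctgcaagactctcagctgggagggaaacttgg
Cyp3a59, chr5:146079008-146079307, plus strand: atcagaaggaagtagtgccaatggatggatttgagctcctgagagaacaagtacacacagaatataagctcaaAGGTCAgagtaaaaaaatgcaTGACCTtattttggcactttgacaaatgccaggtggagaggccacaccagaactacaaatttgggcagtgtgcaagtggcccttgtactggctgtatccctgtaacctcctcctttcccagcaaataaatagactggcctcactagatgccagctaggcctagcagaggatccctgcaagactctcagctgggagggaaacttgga
Both hold 2 half-site matches that face opposite strands, at positions 75 to 80 and 96 to 101 in Cyp3a25 and at positions 74 to 79 and 95 to 100 in Cyp3a59. Neither holds the HNF4 motif, and Cyp3a13 holds none of the 4 motifs searched.

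Cyp3a11 (ENSMUSG00000056035, mm10, chromosome 5, 145854426 to 145879964, minus strand) is the mouse enzyme usually set beside the human CYP3A drug-metabolising forms. Control replicates 1, 2 and 3 held 93405, 93074 and 81480 counts, against 43308, 57970 and 36323 for knockout replicates 1, 2 and 3. The groups did not overlap, and knockout replicate 2 was the highest of the knockouts. The mean level went from 4459 ± 82.4 to 1457 ± 358 CPM (SD, n = 3), 3.06-fold lower in the knockout, with a log2 fold change of -1.61 (SE 0.18, edgeR adjusted p = 0.00112). Within the hepatocyte marker list the median log2 fold change was -1.30, and Alb fell by 2.21 (edgeR adjusted p = 0.00044). The part of those changes in the fall of Cyp3a11 was not tested.

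Cyp3a25 (ENSMUSG00000029630, chromosome 5, 145977194 to 146009618, minus strand) is a further steroid and drug oxidising form. Control libraries held 10005, 13895 and 12550 counts and knockout libraries 3605, 5265 and 3839. No knockout library reached the lowest control library. From 609 ± 105 to 134 ± 28.5 CPM (SD, n = 3) the level was 4.53-fold lower, with a log2 fold change of -2.18 (SE 0.20, edgeR adjusted p = 0.000535). As for Cyp3a11, knockout replicate 2 was the highest of its group. Most hepatocyte markers were highest in that library too: Alb (21100 CPM against 13900 and 13700), Ttr, Apoa1, Apob, Fgb, Tat, Serpina1a, Cyp2e1 and Pck1. Cps1 was level there with knockout replicate 3 (1540 CPM each). Ass1 alone was lowest in knockout replicate 2 (1740 CPM against 1920 and 2290). A link to the Med19 counts of that library was not tested.

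**Figure D1:**
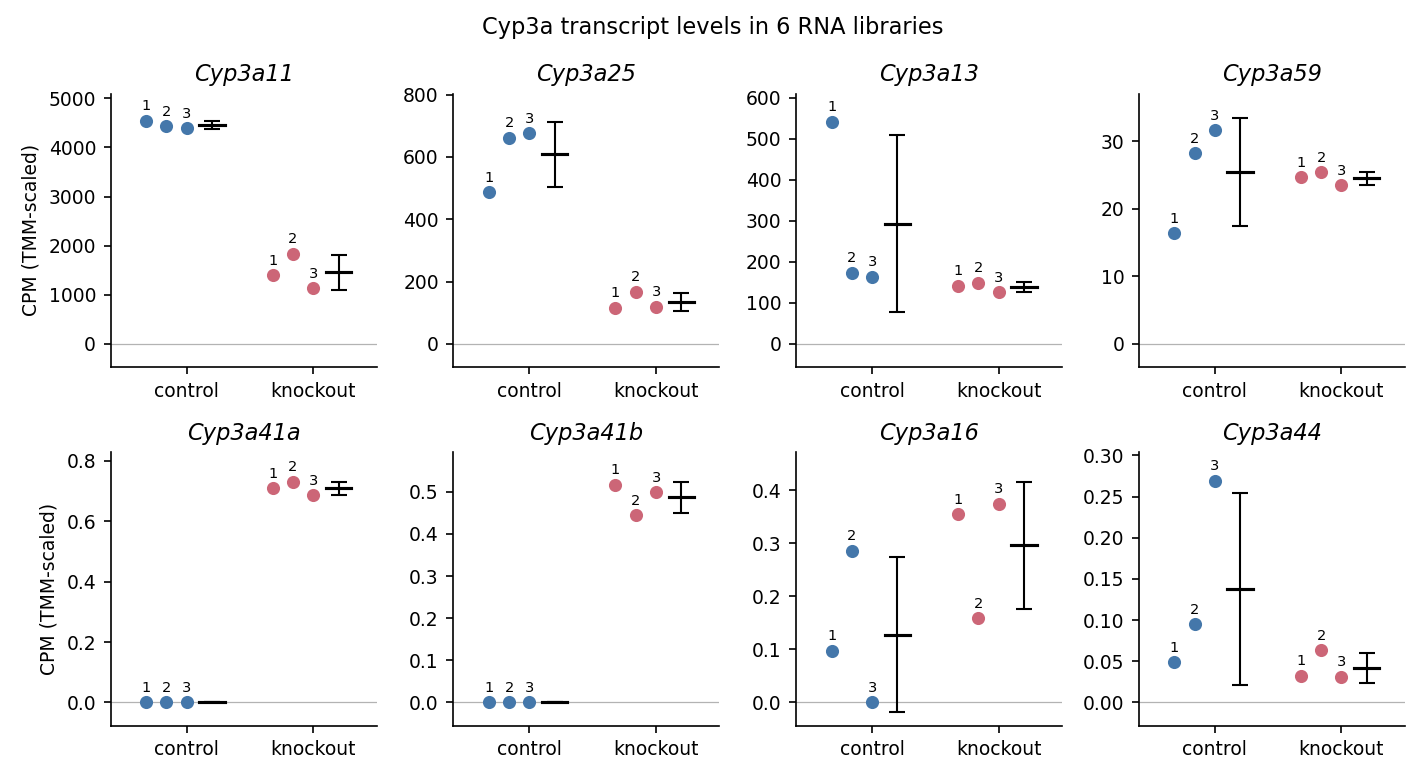
TMM-scaled CPM of the 8 Cyp3a genes in each RNA library; numbered points are replicates, thick bars the mean and thin bars 1 SD (n = 3), and each panel has its own linear axis. Cyp3a11 and Cyp3a25 are lower in all 3 knockout libraries, Cyp3a41a and Cyp3a41b are at 0 in the controls, and control replicate 1 alone is high for Cyp3a13.

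Cyp3a41a (ENSMUSG00000075551, chromosome 5, 145694049 to 145720136, minus strand) had 0 counts in each control library and 22, 23 and 22 in the knockouts. Its copy Cyp3a41b (ENSMUSG00000075552, chromosome 5, 145558664 to 145584730, minus strand) had 0 in each control and 16, 14 and 16 in the knockouts. The spread within the knockout group was small, at 0.709 ± 0.0225 CPM for Cyp3a41a (SD, n = 3). Against the limit that a count of 0 allows over the control group (3 counts, or 0.0499 CPM), Cyp3a41a was at least 14.2-fold and Cyp3a41b at least 9.74-fold higher in the knockout (edgeR adjusted p = 0.00385 and 0.00643). Here and for the other such limits below, only counting noise of the controls is covered, and knockout counts are taken as observed.

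How reads that match both copies were counted was not given in the sources used here, so the division between Cyp3a41a and Cyp3a41b is uncertain. Their sum, which does not depend on that division, was 0 for each control and 38, 37 and 38 for the knockouts, at least 23.9-fold higher. Tested as a summed gene, the pair passed with an edgeR adjusted p of 0.00199. The sum would still be too low if shared reads were dropped, and too high if they were counted for both copies. Of the related genes, Cyp3a11 had at least 81480 counts in each control and fewer in each knockout. Cyp3a16 had 8 counts over the controls and 28 over the knockouts, and Cyp3a44 had 8 and 4. Whether reads of related genes were counted for the copies was not tested. Together with Cyp3a16 and Cyp3a44 the copies made up 0.00497% ± 0.00229 of all Cyp3a counts of control cells and 0.0910% ± 0.0249 of those of knockout cells (SD, n = 3). Among the 2479 genes tested with less than 1 CPM in the controls, 22.3% were called higher, so a rise of a gene at this level is no rare event here. Of the 513 genes that passed the filter only through the knockout libraries, as both copies did, 300 were called higher. A filter that asked for at least 1 CPM in 3 libraries and a mean count of 20 removed both copies.

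Cyp3a16 (ENSMUSG00000038656, chromosome 5, 145436309 to 145469723, minus strand) gave 2, 6 and 0 counts in control and 11, 5 and 12 in knockout cells, with overlapping groups. Cyp3a44 (ENSMUSG00000054417, chromosome 5, 145773983 to 145805874, minus strand) had 1, 2 and 5 against 1, 2 and 1. Neither passed the filter on low counts, and no difference was detectable at this depth. Without the filter their edgeR adjusted p values were 0.448 and 0.46. Cyp3a57, not among the 8, had no count in any control and 6, 0 and 2 counts in knockout replicates 1, 2 and 3. The pseudogene Cyp3a63-ps, which lies between the copies Cyp3a41b and Cyp3a41a, likewise had no control count but 5, 8 and 11 in the knockout replicates, at least 5.08-fold higher. It was too low for the main test, and without the filter its edgeR adjusted p was 0.0144.

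Cyp3a59 (ENSMUSG00000061292, chromosome 5, 146079257 to 146113287, plus strand) had control counts of 336, 593 and 588 against knockout counts of 765, 800 and 754. Scaled by TMM, the groups overlapped, with means of 25.4 ± 8.04 CPM for control and 24.5 ± 0.965 CPM for knockout cells (SD, n = 3), with a difference of -0.05 on the log2 scale (SE 0.23, edgeR adjusted p = 0.887). The sign depends on the scaling, since with library size alone it was 0.52 (edgeR adjusted p = 0.107), and it also turned without control replicate 2 (0.03) and without control replicate 3 (0.13). Over 14 alternatives the adjusted p lay between 0.0825 and 0.997. Relative to the median of all genes, Cyp3a59 was at -0.07 with TMM and at -0.08 with library size alone.

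On the same relative scale Cyp3a11 stood at -1.63 under both scalings and Cyp3a25 at -2.19 with TMM and -2.20 with library size alone. With library size alone and no such reference, the log2 fold changes of Cyp3a11 and Cyp3a25 were -1.03 and -1.60. Both genes passed the test in each of the 14 alternatives tried, which changed the tool, the scaling, the filter or the libraries.

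**Figure D2:**
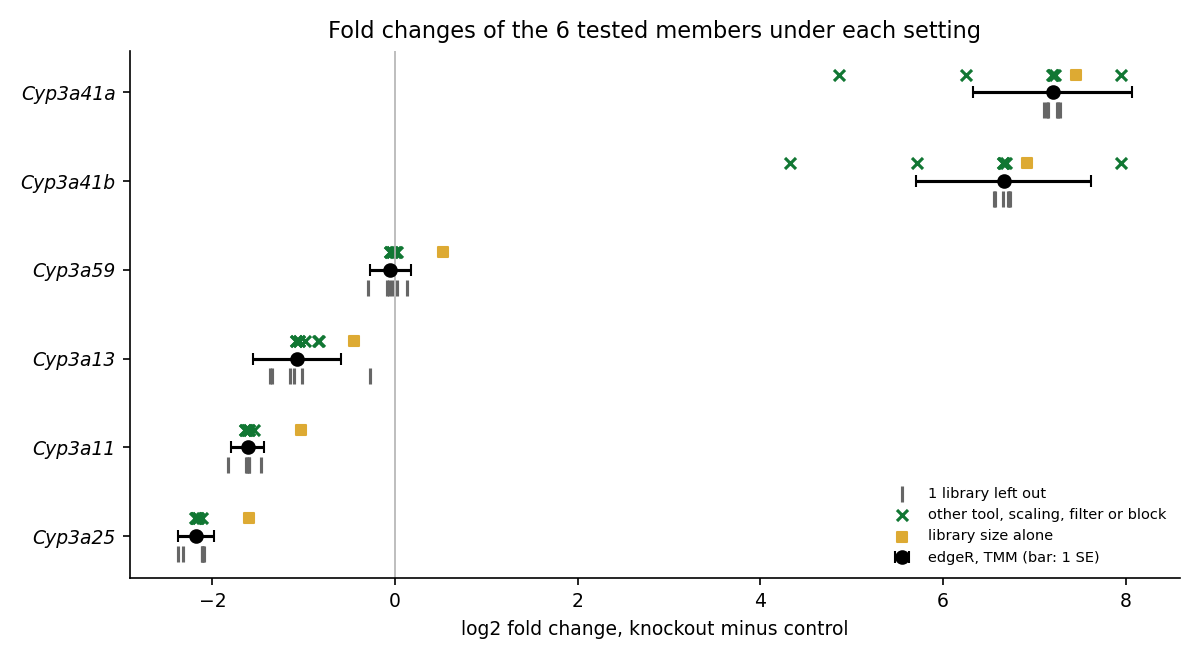
Log2 fold change (knockout minus control, horizontal axis) of the 6 tested Cyp3a genes; black points are the edgeR values with TMM (bars, 1 SE), and the other marks are alternatives. Cyp3a25 and Cyp3a11 stay below 0 in every setting, Cyp3a59 lies on both sides of 0, and the values of Cyp3a41a and Cyp3a41b depend on the prior count because their controls are at 0.

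Cyp3a13 (ENSMUSG00000029727, chromosome 5, 137892932 to 137921619, minus strand) is a form found in intestine as well as liver. Control counts were 11136, 3642 and 3037, and knockout counts 4417, 4712 and 4032. Control replicate 1 stood far above the rest, at 542 CPM against 174 and 164 for the other controls, and the knockouts lay between 126 and 150. The log2 fold change was -1.07 (SE 0.48) and did not pass (edgeR adjusted p = 0.153). Without control replicate 1 it was -0.28 (edgeR adjusted p = 0.0823), so 1 library sets the size of the difference.

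For Cyp3a13 the tools did not give the same call. DESeq2 gave -1.09 with an adjusted p of 0.0338, and the authors' deposited table marks the gene as significant with an adjusted p of 0.0348. Over the 14 alternatives the adjusted p ran from 0.0338 to 0.405. Scaled by TMM every control lay above every knockout, while the raw counts of the groups overlapped. The authors' deposited table, which marks 8.17% of all rows, also marks Cyp3a11, Cyp3a25, Cyp3a41a, Cyp3a41b and Cyp3a63-ps. That share is over all 27277 rows, so it cannot be set beside the 25.5% of genes tested.

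Summed over the 8 genes, Cyp3a counts reached 114885, 111212 and 97660 for the controls but 52145, 68791 and 44999 for the knockouts. As a share of all counts this was 0.439% ± 0.00604 for control and 0.214% ± 0.0425 for knockout cells (SD, n = 3), so the family took a smaller part of every knockout library. Cyp3a11 made up 82.8% ± 1.31 of the Cyp3a counts of control and 82.7% ± 1.80 of those of knockout cells. Cyp3a25 made up 11.4% ± 2.29 and 7.70% ± 0.81, and Cyp3a59 0.476% ± 0.163 and 1.44% ± 0.258. Cyp3a13 made up 5.36% ± 3.75 and 8.09% ± 1.10, with control replicate 1 at 9.69% and the other controls at 3.28% and 3.11%. These shares are of counts and were not divided by transcript length, so they do not rank the genes by molecules.

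Ratios between the genes within a library do not depend on library scaling. The ratio of Cyp3a25 to Cyp3a59 counts, the pair with similar promoters, was 29.8, 23.4 and 21.3 for the controls but 4.71, 6.58 and 5.09 for the knockouts. Cyp3a11 to Cyp3a59 was 278.0, 157.0 and 139.0 for the controls but 56.6, 72.5 and 48.2 for the knockouts. Cyp3a11 to Cyp3a25 was 9.34, 6.70 and 6.49 for the controls but 12.0, 11 and 9.46 for the knockouts. All 3 ratios differed without overlap between the groups, and each had an exact two-sided permutation p of 0.1 (0.1 after Benjamini-Hochberg adjustment over the 3 ratios), the smallest that 3 libraries against 3 can give. The ratios were chosen with the changes known.

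**Figure D3:**
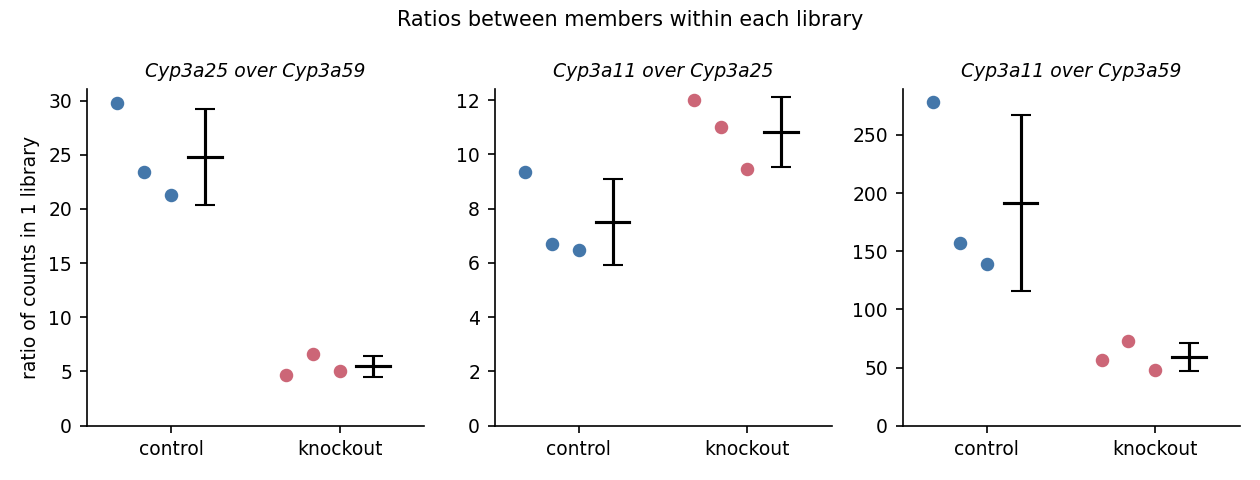
Ratio of the counts of 2 Cyp3a genes within the same library (vertical axis, no unit); points are replicates 1 to 3 from left to right, bars the mean and 1 SD (n = 3). Cyp3a25 over Cyp3a59 drops from at least 21.3 in the controls to at most 6.58 in the knockouts, and Cyp3a11 over Cyp3a25 is higher in the knockouts.

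The sample titles name RNA poll III as the ChIP target, whereas the design text of the series speaks of ChIP for Lcmr1, so the protein behind the regions is uncertain. The control list holds 16995 regions and the knockout list 1309, each called by the authors in 1 library, and fold and q are the authors' values for each region. Control regions overlapped 3 of the 8 Cyp3a genes, Cyp3a11, Cyp3a25 and Cyp3a13, and knockout regions 0 of 8. Of all genes tested, 39.2% overlapped a control region, and of the 1710 genes with at least 100 CPM in the controls 80.9% did. The corresponding shares for the knockout list were 3.90% and 16.5%. Among the 5931 genes with a control region, 9.53% also had a knockout region, so a region present in the control list alone was the usual case. With 1 library of each genotype there is no test and no replicate check.

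At Cyp3a25 there were 4 control regions. One summit, at 146009665, lies 47 bases before the RefSeq start, at position 204 of the promoter printed above, with a fold of 5.36 and a -log10 q of 4.45. The strongest region, chr5:145999605-146001273, lies within the gene with a fold of 8.47 and a -log10 q of 11.1, higher than 83.7% of the list. A further region lies 223 bases past the 3′ end of the gene. No other Cyp3a gene had a control summit within 1000 bases of its start.

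At Cyp3a11 all 4 regions lie inside the gene, with summits 6773 to 11226 bases from the deposited 5′ end and folds from 3.51 to 5.96. At Cyp3a13 both regions lie inside the gene, with folds of 3.95 and 4.71. The genes without a control region were Cyp3a16, Cyp3a41a, Cyp3a41b and Cyp3a44, which had no or few counts in the controls, and Cyp3a59. No control region was called over 615.0 kb between 145253616 and 145868582, the stretch that holds those 4 low genes. The knockout region nearest to any Cyp3a gene was 901976 bases away from Cyp3a59.

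**Figure D4:**
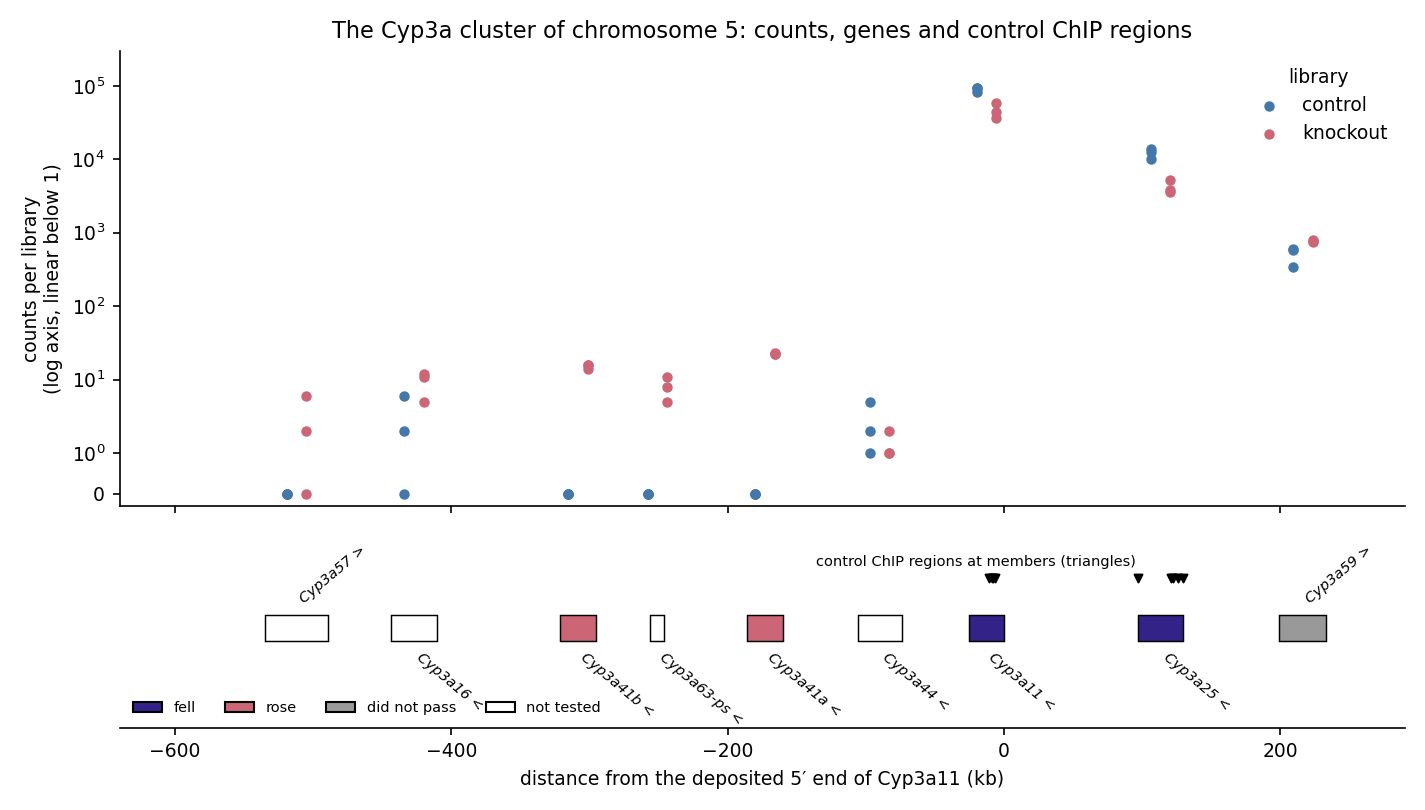
Upper panel, counts per RNA library of the Cyp3a genes of the cluster (log axis, linear below 1) against distance from the 5′ end of Cyp3a11 (kb); lower panel, the genes coloured by their edgeR call, with strand arrows and triangles for control ChIP regions. Control regions sit at Cyp3a11 and Cyp3a25, and the genes to their left, with at most 23 counts per library, hold none.

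Among receptors and factors known to act on Cyp3a genes, 35 were tested, 1 rose and 13 fell, with a median log2 fold change of -0.28 against 0.0141 for all genes. This list had 40% called, beside 25.5% of all genes. Nr1i3, which encodes CAR, gave 382, 860 and 612 counts in control and 12, 36 and 13 in knockout cells, a log2 fold change of -5.57 (SE 0.51, edgeR adjusted p = 0.000789). Rxra, the dimer partner of PXR and CAR, fell by 1.18 on the log2 scale, Cebpa, a hepatocyte transcription factor, by 1.28, and Ahr, the receptor for dioxin-like compounds, by 1.14. Esr1, the estrogen receptor, was the gene that rose, by 1.41. Nr1i2, which encodes PXR, was named after its values were seen: it had control counts of 1703, 2502 and 2114 against knockout counts of 1680, 1999 and 1823, and fell by 0.86 on the TMM scale (edgeR adjusted p = 0.00716). Nr1i2 under library size alone was at -0.28 and did not pass (edgeR adjusted p = 0.204; 0.00716 with TMM). Hnf4a, also named after its values were seen, fell by 1.35. The counts of this list depend on the scaling: with library size alone 12 rose and 8 fell, beside 7711 higher and 617 lower over all genes. The list median was then 0.307 against 0.602 for all genes, so it lay below that of all genes under both scalings. Without control replicate 1, with TMM, 3 rose and 16 fell.

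Of the 8 genes for electron donors and heme supply, 0 rose and 3 fell, 37.5% called beside 25.5% of all genes: Cyb5a, which encodes cytochrome b5, by 1.26 on the log2 scale, Pgrmc1 by 0.79 and Pgrmc2 by 0.87, the latter pair encoding heme-binding membrane proteins. Pgrmc1 no longer passed with library size alone (-0.21). Por, the reductase that passes electrons to P450 enzymes, was named after its values were seen, had a log2 fold change of 0.28 and did not pass (edgeR adjusted p = 0.451). For Por this depended on control replicate 1, which held 15376 counts against 8739 and 7811 in the other controls: without it the value was 0.62 (edgeR adjusted p = 0.0177). Without that library 2 of the 8 genes rose and 4 fell. With library size alone 2 rose and 2 fell, with a median of -0.0869 against 0.602 for all genes.

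Other genes known as targets of PXR or CAR moved in both directions, with 15 of 32 tested higher and 10 lower and a median log2 fold change of 0.78. Calls made up 78.1% of this list, beside 25.5% of all genes. Cyp2b13, Cyp2c65 and Sult2a1 among the higher genes passed the filter only through the knockout libraries. Cyp2c37, a P450 of the 2C subfamily, gave 11573, 7792 and 6302 counts in control and 260, 395 and 134 in knockout cells (log2 fold change -5.66, edgeR adjusted p = 0.000706). Gstm3, a glutathione transferase, fell by 1.30. Cyp2a4, a steroid hydroxylase, rose by 6.41 and Abcc4, an efflux transporter, by 2.66. The counts were 18 and 8 with library size alone.

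The rise of Cyp3a41a and Cyp3a41b, forms known from female liver, was set beside other genes that differ between the sexes in mouse liver. Cyp3a44, also known from female liver, had control counts of 1, 2 and 5 against knockout counts of 1, 2 and 1 and was too low to be tested. Of the 21 female-predominant genes tested, 16 rose and 0 fell, with a median of 2.32, while 12.6% of all genes were called higher. Of the 16, A1bg, Cyp2b13, Hao2, Sult2a1, Sult2a2 and Ttc39aos1 passed the filter on low counts only through the knockout libraries, so neither the count nor the median is support for a direction. A1bg, a plasma protein gene, had control counts of 4, 0 and 1 against knockout counts of 501, 471 and 872, and Cyp2a4, also a member of the PXR and CAR list, had 24, 17 and 20 against 2083, 2189 and 3992. Sult2a2, a steroid sulfotransferase, rose by 4.81 and Slc22a26, an organic anion transporter, by 2.32. Cyp4a14, the gene of the list with the most counts in control replicate 1 and named after its values were seen, gave 61669, 7610 and 6611 counts in control and 851, 2263 and 128 in knockout cells without passing (log2 fold change -5.17, edgeR adjusted p = 0.0557).

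Of the 29 male-predominant genes tested, 0 rose and 23 fell, with a median of -2.69, while 13.0% of all genes were called lower. Obp2a passed the filter only through the control libraries. Slco1a1, an organic anion uptake transporter, had control counts of 3342, 7059 and 6678 against knockout counts of 126, 262 and 208, and Obp2a, which encodes a lipocalin, had 172, 201 and 129 against 0, 1 and 0. Ugt2b38, a glucuronosyltransferase, fell by 2.47 and Cyp2d9, a testosterone hydroxylase, by 1.06. With library size alone 17 female-predominant genes rose and 1 fell, and 0 male-predominant genes rose and 23 fell. Without control replicate 1, 15 female-predominant genes rose and 0 fell, and 0 male-predominant genes rose and 18 fell. These lists were drawn up with part of the changes known, and the female-predominant list shares Cyp2b9, Cyp2b13, Cyp2a4 and Sult2a1 with the PXR and CAR list, so they are not independent evidence of a direction.

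Every RNA library carried transcripts of the Y chromosome, with 144 to 1750 counts for each of Ddx3y, Kdm5d, Uty and Eif2s3y, and at most 8 counts of Xist, the RNA of the inactive X chromosome. Uty rose by 0.50 (edgeR adjusted p = 0.04) and the other 3 Y genes did not pass. In growth hormone and STAT5 signalling, which sets the sex pattern of liver genes in mice, 2 of 11 genes rose and 2 fell: Stat5a (0.56) and Cux2 (3.09), a repressor known from female liver, were higher, and Ghr (-1.05), the growth hormone receptor, and Igf1 (-1.62), its secreted target, were lower. That is 36.4% of the list called, beside 25.5% of all genes. Without control replicate 1, with TMM, 1 gene of this list rose and 4 fell, with a median of -0.405. With library size alone 2 genes of this list rose and 1 fell, with a median of 0.37 against 0.602 for all genes. Ghr then did not pass (-0.48, edgeR adjusted p = 0.127), nor did it without knockout replicate 1 (edgeR adjusted p = 0.0536). Of 7 fetal liver genes tested 0 rose and 2 fell, Peg3 (-1.65) and Zfhx3 (-0.71). That share, 28.6%, was near the 25.5% of all genes. The calls of Cux2, Stat5a, Uty, Peg3 and Zfhx3 were each lost in 3 or more of the 6 fits without 1 library. Scaled by library size alone, 5 fetal genes rose and 1 fell, with a median of 0.724 against 0.602 for all genes. Afp, the fetal albumin relative, gave 14, 41 and 30 counts in control and 63, 67 and 102 in knockout cells and did not pass (edgeR adjusted p = 0.19).

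**Figure D5:**
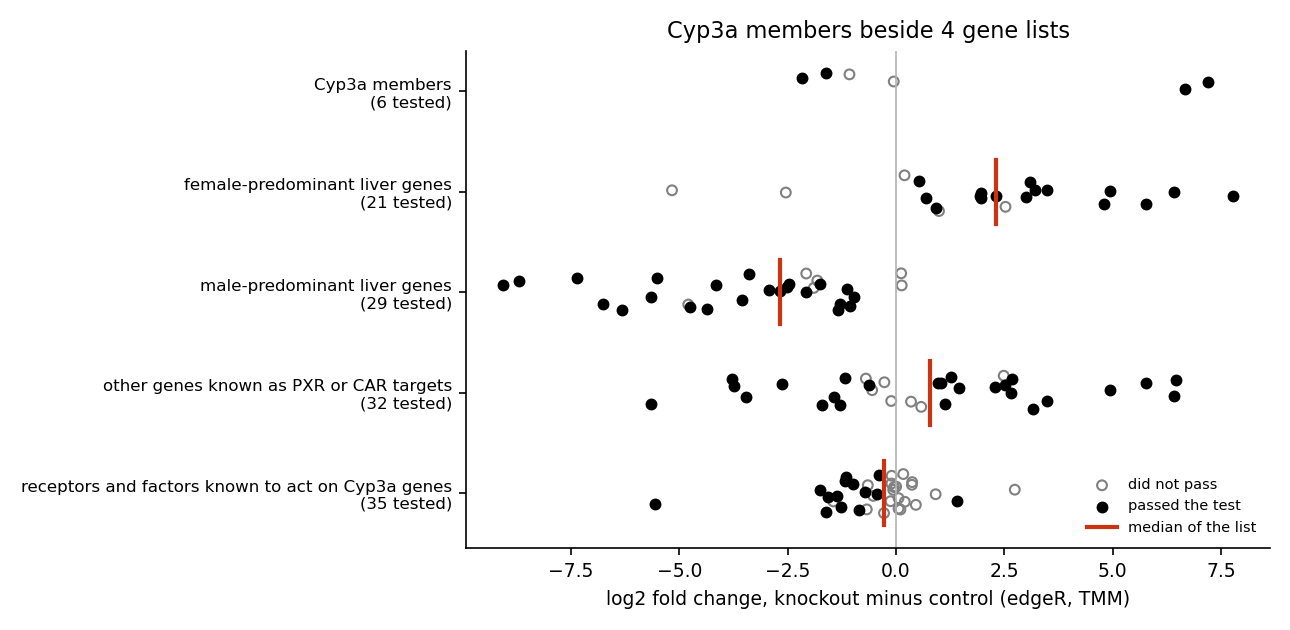
Log2 fold change (knockout minus control, edgeR with TMM) of the 6 tested Cyp3a genes and of 4 gene lists; filled points passed the test, open points did not, and red bars are list medians (none is drawn for the Cyp3a genes). Female-predominant genes that passed lie above 0 and male-predominant ones below 0, while PXR or CAR targets and the Cyp3a genes lie on both sides.

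Markers of other cells were counted beside these lists. Besides the macrophage markers given above, 1 of 10 endothelial markers rose (Lyve1, 2.18), 2 of 10 stellate cell and fibroblast markers rose (Col1a2, 0.89, and Postn, 0.77), and 0 of 8 bile duct and 0 of 7 tested lymphocyte markers changed. No marker of these 5 cell types was at 0 in all libraries. Calls made up 10% of the endothelial and 20% of the stellate cell and fibroblast markers, beside 25.5% of all genes. Of the 7 small intestine markers 3 were tested and 3 rose, 100% called beside 25.5% of all genes. Vil1 went from 8, 5 and 7 counts to 146, 299 and 192, Fabp2 rose by 1.04, and Cyp2c65 went from 0 in each control to 15, 13 and 12. Lct, with 0, 3 and 0 counts in control and 2, 3 and 0 in knockout cells, was too low to be tested. Sis, Alpi and Cdx2 were not analysed here. Vil1 and Cyp2c65 passed the filter only through the knockout libraries. Summed levels per control and per knockout library were 385.6 to 461.4 and 434.0 to 657.1 CPM for endothelial, 122.0 to 243.6 and 236.0 to 282.2 for stellate cell, 521.6 to 1477 and 311.4 to 473.6 for bile duct, 8.04 to 14.5 and 13.0 to 20.1 for lymphocyte, and 36.7 to 64.9 and 114.6 to 126.7 for small intestine markers. With library size alone 10 endothelial, 6 stellate cell, 2 bile duct and 5 lymphocyte markers rose, beside 7711 of the 15135 genes tested. The part of these cells in the changes of Cyp3a genes was not tested.

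Around the Cyp3a genes, 32 other genes of the table lie within 200 kb, of which 19 were tested, 2 rose and 4 fell. That is 31.6% called, beside 25.5% of all genes. Nyap1 (2.05) and Tsc22d4 (1.69) rose, and Azgp1 (-1.37), Ppp1r35 (-0.91), Zfp655 (-1.0) and the pseudogene Gm15502 (-1.87) fell. Of these only Zfp655 lies near the cluster, and the others lie at Cyp3a13, apart from it. Gm15502 lies inside Cyp3a13 on the same strand, so its reads may belong to Cyp3a13. Ppp1r35 (-0.32) and Zfp655 (-0.39) did not pass with library size alone. Without any 1 of the knockout libraries Gm15502 did not pass, nor Zfp655 without knockout replicate 1. Zscan25, beside the cluster, was at -0.01 (edgeR adjusted p = 0.982), and Rnf6 and Cdk8, on the other side next to Cyp3a59, were at 0.03 and -0.14 and did not pass. Cdk8 encodes a kinase of Mediator.

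The genes whose pattern was most like that of Cyp3a11 over the 6 RNA libraries, by Pearson correlation of log2 CPM, were Apom (0.9992), C8a (0.9992), Hrg (0.9988), Fbxo38 (0.9987) and Wfdc21 (0.9986). The points are 6 libraries in 2 groups, and 616 of 9359 protein-coding genes reached 0.95, so the order among them carries little. Apom had control counts of 4679, 4318 and 4030 against knockout counts of 1971, 2619 and 1604, with the same high knockout replicate 2 as Cyp3a11. For Cyp3a13 the closest were Cdk7, Dnajb1, Pygo2, 3110082I17Rik and Ppig (0.9959 to 0.9971), and 221 genes reached 0.95. Dnajb1, a heat shock gene, gave 12161, 1961 and 1603 counts in control and 2106, 1967 and 1799 in knockout cells, high in control replicate 1 alone as Cyp3a13 was. For Cyp3a41a the closest were Rcan2, Cog4, Fam53b, Lpl and Il18bp, and 434 genes reached 0.95. Lpl, which encodes lipoprotein lipase, had control counts of 254, 297 and 253 against knockout counts of 4021, 3476 and 3966.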

How the data were processed

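RNA libraries came from a TruSeq kit, per the labels' protocols, and the values deposited for them are raw counts by Ensembl gene (mm10). HISAT2 2.1.0, Bowtie2 2.2.3 and HTSeq 0.6.0 are named in the submitters' processing notes. Strand setting and the treatment of reads with several matches were not given in the sources used here. The same deposited table carries the authors' fold change as a ratio, its log2 value, p-values and adjusted p-values. For ChIP the submitters' processing notes list MACS2, BWA, deepTools, DESeq2 and SAMtools, with no versions. The deposited regions, 1 list per library, carry a score, a fold over background (signal value), a -log10 p and a -log10 q from the authors. Use of an input library was not given in the sources used here.

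Groups and replicate numbers came from the sample titles. The filter was filterByExpr at its defaults (10 and 15 counts), the scaling TMM, and the test edgeR's quasi-likelihood F-test (version 4.0.16, R 4.3.3), robust and two-sided with genotype as a term, with Benjamini-Hochberg adjustment over the 15135 genes tested. Alternatives used limma 3.58.1, DESeq2 1.42.0, other scalings, filters and left-out libraries. Regions were counted where they overlapped a gene by 1 base. Promoters were aligned with Biopython 1.88.

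Gene names follow a rule: all 8 genes, other Cyp3a rows, in each of 8 pathway lists up to 4 called genes with the smallest adjusted p, all where 5 or fewer rose or fell, called neighbours within 200 kb, and the 5 genes most correlated with Cyp3a11, Cyp3a13 and Cyp3a41a. Nr1i2, Hnf4a, Por, Cyp4a14, Afp, Zscan25, Rnf6 and Cdk8 were named after their values were seen. The 7 marker lists served as a check. The genes and lists were chosen with earlier results of these data known. Ces6, Tf, Sis, Alpi and Cdx2 were not analysed here.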

Additional observations from a re-analysis of the deposited data

How the results depend on the processing

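The calls of Cyp3a11, Cyp3a25, Cyp3a41a and Cyp3a41b held in every alternative that could be run; the stricter filter gave no value for Cyp3a41a and Cyp3a41b. Leaving out 1 library at a time gave log2 fold changes from -1.83 to -1.47 for Cyp3a11, -2.38 to -2.09 for Cyp3a25, -1.37 to -0.28 for Cyp3a13 and -0.29 to 0.13 for Cyp3a59. Cyp3a59 turned positive with upper-quartile factors (0.0151), library size alone (0.52), limma-voom (0.00814), without control replicate 2 (0.03) and without control replicate 3 (0.13), never past the threshold. Cyp3a13 passed with DESeq2 (-1.09). Genes called numbered 3865, and 8328 with library size alone. Leaving out 1 library gave 2236 (without knockout replicate 1) to 4921 (without control replicate 1), with 2419, 2360 and 2570 without control replicate 2, control replicate 3 and knockout replicate 2. Of the ChIP results, 1 gene instead of 3 had a control summit within 1000 bases of its start. For 35 of the other named genes (Nr1i2, Hnf4a, Por, the called neighbours and the list genes picked by the rule for named genes), over 14 alternatives, 449 of 490 results kept direction and side of the threshold, 39 no longer passed, 2 newly passed and 0 reversed.

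Libraries with the same number did not deviate together beyond 0.11 (0.11, 0.052 and 0.094), so the numbers were not taken as pairs, although each library correlated best with its own number. With a replicate block 3468 genes were called, and Cyp3a11 was at -1.64 (edgeR adjusted p = 0.00332). Counts of 23 or fewer per library limit what can be said of Cyp3a16, Cyp3a41a, Cyp3a41b and Cyp3a44.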
